A study of Sus scrofa domesticus with 6 samples.

Results

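RUNX2, SP7 and their relatives are the transcription factors that commit cells to bone, and their transcripts were followed here in miniature pig embryos, in the condyle that forms the jaw joint. RUNX2, SP7, RUNX1, RUNX3, CBFB and ATF4 were sought by name in the deposited table, taking the row with the most counts for each name. 5 of the 6 names had a row, 1 row each, among 25322 gene rows. No row was named CBFB, the partner subunit of the RUNX proteins, so it was not analysed here. The groups are condyles at 85 days of gestation and condyles at 45 days, with 3 libraries per age. The labels give no treatment beyond age, and name the tissue as cartilage and its cells as chondrocytes and osteocytes. They do not say whether a library comes from 1 embryo or from pooled tissue, so the p-values cover only how far these libraries scatter, and that scatter may be technical. All fold changes are day 85 over day 45, on n = 3 libraries per age.

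RUNX2 is the transcription factor without which osteoblasts do not form in mice, and it also drives chondrocytes into hypertrophy. SP7, also called osterix, is a zinc finger factor that acts after RUNX2 and is likewise needed for bone in mice. RUNX1 and RUNX3 are the paralogs of RUNX2: RUNX1 is best known from blood cell formation and RUNX3 from lymphocytes and cartilage maturation. ATF4 is a bZIP factor of the integrated stress response that sustains amino acid supply and osteocalcin expression in mouse osteoblasts.

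Total counts were 12546729 to 16033822 in the day 85 libraries and 14221365 to 16559616 in the day 45 libraries. Day 85 replicate 2 stood apart from the other 2 libraries of its age, at -80.6 on the second principal component against 22.6 and 23.1. Chondrocyte markers, 10 genes such as COL2A1 and ACAN, were detected at both ages. They summed to 946, 4602 and 1882 CPM in day 85 replicates 1, 2 and 3, against 11536 to 14746 CPM in the day 45 libraries. A panel of 9 osteoclast markers summed to 1952, 13930 and 2382 CPM in the day 85 libraries, against 332 to 1351 CPM at day 45. Skeletal muscle markers, 7 genes, summed to 27578, 2006 and 23816 CPM at day 85 and to 3130 to 7067 CPM at day 45. Osteoblast markers, 7 genes, summed to 46628, 81739 and 53148 CPM at day 85 and to 31843 to 48947 CPM at day 45, with overlap. Their 7 log2 fold changes were all positive. Osteocyte markers, 6 genes, summed to 752, 2014 and 564.5 CPM at day 85 and to 216 to 856 CPM at day 45. Endothelial markers, 5 genes such as PECAM1 and KDR, summed to 1309, 806 and 970 CPM at day 85 and to 246 to 478 CPM at day 45. By the rule given below, 3 of these 5 were called higher, where 3.90% of all tested genes were. Of 10 chondrocyte markers 3 were called lower, and of 5 tested osteocyte markers 2, SOST and PDPN, where 2.66% of all genes were. Among osteoclast, skeletal muscle and osteoblast markers 0 were called. Even so, all 9 osteoclast markers, 1 of 7 muscle and 3 of 7 osteoblast markers were higher in every day 85 library than in any day 45 library. Among all tested genes 17.4% were. All 10 chondrocyte markers were lower in every day 85 library than in any day 45 library, as were 17.6% of all tested genes. In bulk tissue, fewer cells of a type and less RNA per cell cannot be told apart.

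None of the 5 transcription factor genes differed between the ages past the threshold. A gene was called when its adjusted p, from the quasi-likelihood test of edgeR and adjusted by Benjamini-Hochberg over 15022 tested genes, was under 0.05. By that rule 6.56% of all tested genes were called, 3.90% as higher and 2.66% as lower at day 85. All 5 members passed the filter on low counts and 0 were called, with 0 at an unadjusted p under 0.05, against 29.1% of all tested genes. DESeq2 called 0 of them and put 2, RUNX2 and RUNX1, at an unadjusted p under 0.05, where it put 33.5% of all genes. In each of the 5 genes the libraries of the ages overlapped, whereas 35% of all tested genes did not overlap. RUNX2, SP7 and RUNX3 averaged lower at day 85, RUNX1 averaged higher, and ATF4 was nearly level.

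RUNX2 stood at 127, 265 and 199.9 CPM (counts scaled to library size, normalised by TMM) in day 85 replicates 1, 2 and 3, against 275, 389 and 236 CPM in day 45 replicates 1, 2 and 3. Day 85 replicate 1 was the lowest library and day 45 replicate 2 the highest, and the ages overlapped through day 85 replicate 2, which lay above day 45 replicate 3. The mean was 197 ± 69.0 CPM at day 85 and 300.1 ± 79.6 CPM at day 45 (SD, n = 3 each). The log2 fold change was -0.60 with an SE of 0.30 and a 95% interval of -1.33 to 0.12 (edgeR adjusted p = 0.239). This interval holds a reduction to 0.398 of the day 45 level as well as no change. Without day 85 replicate 2 the log2 fold change was -0.87 and the adjusted p 0.0700, in a fit that called 22.3% of all genes, 12.3% as higher and 10% as lower.

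Within each age, SP7 put the libraries in the same order as RUNX2. It stood at 115, 256 and 198 CPM at day 85 and at 285, 302 and 173 CPM at day 45. Day 85 replicate 1 was again the lowest library and day 45 replicate 2 the highest. The mean was 190 ± 70.8 CPM at day 85 and 253 ± 70.2 CPM at day 45 (SD, n = 3 each), with a log2 fold change of -0.42 and an SE of 0.34 (95% interval -1.22 to 0.39, edgeR adjusted p = 0.447). It ran from -0.69 without day 85 replicate 2 to -0.18 without day 85 replicate 1. Per length, in the deposited FPKM (fragments scaled by gene model length and library size), SP7 was 3.48, 3.72 and 3.83 times the level of RUNX2 at day 85 and 3.995, 2.99 and 2.82 times at day 45, so that the ratio overlapped between the ages.

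RUNX1 was the 1 member with a positive log2 fold change of more than its SE. Its level was 9.90, 19.1 and 11.7 CPM at day 85, against 8.39, 10.2 and 9.09 CPM at day 45. Day 85 replicate 2 was the highest, and only day 85 replicate 1 lay within the day 45 range. The log2 fold change was 0.56 with an SE of 0.27 (95% interval -0.08 to 1.19, edgeR adjusted p = 0.2203), and 0.23 without day 85 replicate 2. That library also held the most of 9 macrophage and myeloid markers. These summed to 266, 980 and 254 CPM at day 85 and to 83.9, 174 and 114 CPM at day 45. Of the 8 tested, 1 was called higher, where 3.90% of all tested genes were. No marker of this panel was at 0 in all 6 libraries, though CD163 was at 0 in 3 of them and too low to test. The part of these markers in the level of RUNX1 was not tested.

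RUNX3 had the fewest counts, with 6, 29 and 16 counts at day 85, against 37, 28 and 18 counts at day 45. These counts correspond to 0.464, 1.93 and 1.05 CPM at day 85, against 2.27, 2.02 and 1.18 CPM at day 45. Its log2 fold change of -0.65 had an SE of 0.52 and an interval of -1.88 to 0.59 (edgeR adjusted p = 0.444), so a level at 0.271 of that at day 45 could not be told from no change. It was -1.23 without day 85 replicate 2 (adjusted p = 0.121). Of 12 pan-leukocyte and lymphocyte markers, 8 could be tested and 0 were called. Their sum was 55.2, 51.1 and 31.2 CPM at day 85 against 24.0, 15.9 and 28.3 CPM at day 45, and their part in the level of RUNX3 was not tested.

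ATF4 varied least. It stood at 513, 507 and 471 CPM at day 85 and at 511, 537 and 396 CPM at day 45. The lowest and the highest library were both of day 45, so the day 85 values lay within the day 45 range. The log2 fold change was 0.05 with an SE of 0.15, and its 95% interval of -0.32 to 0.41 bounds the change between 0.802-fold and 1.33-fold (edgeR adjusted p = 0.867). Leaving out day 45 replicate 3 turned the sign, to -0.08.

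**Figure D1:**
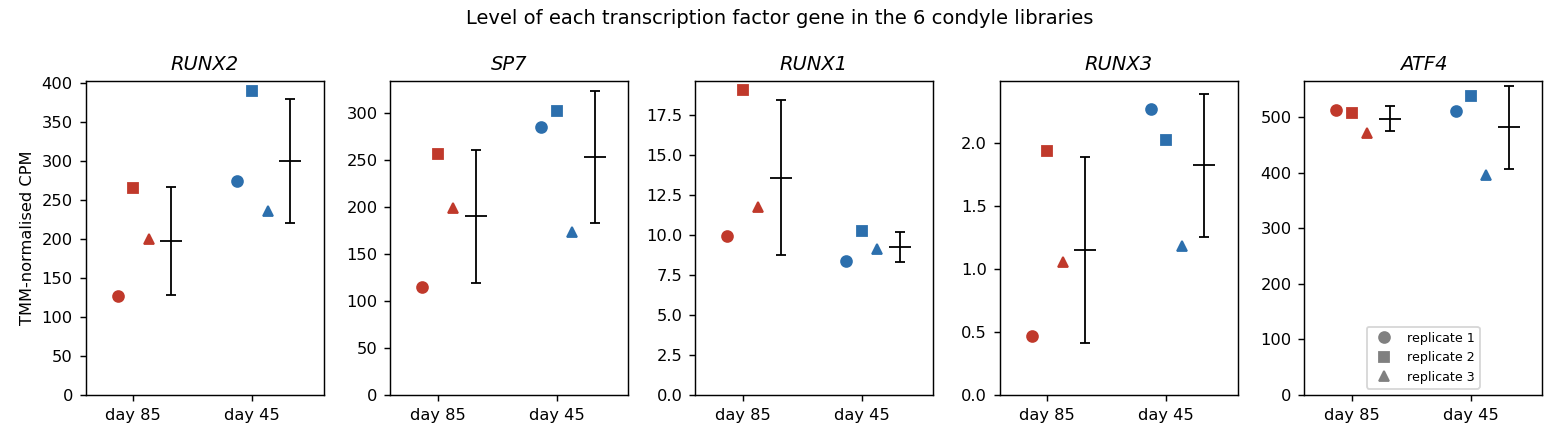
TMM-normalised CPM of each gene in the 3 day 85 libraries (red) and the 3 day 45 libraries (blue), with replicates 1, 2 and 3 as circle, square and triangle; black marks give the mean and SD. RUNX2 and SP7 are lowest in day 85 replicate 1, at 127 and 115 CPM, RUNX1 is highest in day 85 replicate 2, at 19.1 CPM, and ATF4 stays between 396 and 537 CPM.

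**Figure D2:**
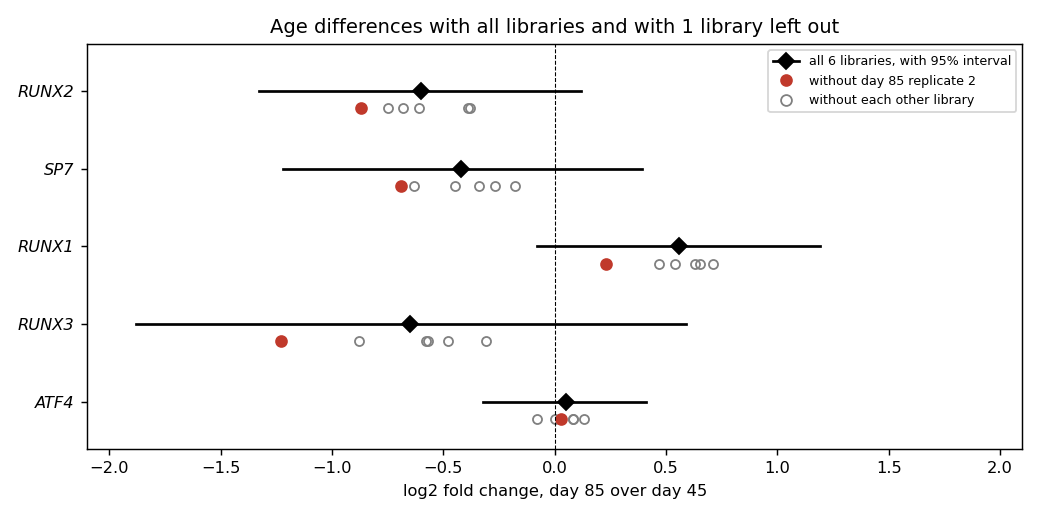
Log2 fold change, day 85 over day 45, of each gene in edgeR with all 6 libraries (black diamond, line for the 95% interval), without day 85 replicate 2 (red) and without each of the other libraries (open circles). All 5 intervals include 0, and RUNX2 runs from -0.87 to -0.38 as libraries are left out.

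The order of the levels per length was the same in all 6 libraries: ATF4, SP7, RUNX2, RUNX1, RUNX3. ATF4 averaged 348 ± 23.6 FPKM at day 85 and 343 ± 35.9 FPKM at day 45, above 98.8% of tested genes by its mean over all libraries. SP7 averaged 142 ± 47.1 FPKM at day 85 and 195 ± 45.0 FPKM at day 45, and RUNX2 averaged 38.5 ± 11.7 and 60.02 ± 13.3 FPKM. RUNX1 was far lower, at 6.55 ± 2.01 FPKM at day 85 and 4.62 ± 0.449 FPKM at day 45, and RUNX3 was at 0.529 ± 0.318 and 0.865 ± 0.237 FPKM (SD, n = 3 each). No neighbours in this order overlapped over the 6 libraries. The closest were SP7 and RUNX2, with a lowest SP7 value of 91.2 FPKM and a highest RUNX2 value of 75.2 FPKM.

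These levels rest on gene models of very unequal extent. In the coordinates of the table, of which no source used here names the build, RUNX2 lies on chromosome 7 at 46279208 to 46417272, and its FPKM was computed over 5006 bases. SP7 lies on chromosome 5 at 18980262 to 18981560, a span of 1299 bases that equals the length behind its FPKM, so this model holds no intron. RUNX1, on chromosome 13 at 208204968 to 208304419, was scaled by 2019 bases. RUNX3, on chromosome 6 at 76298301 to 76302289, has a model of only 3989 bases, against spans of 138065 and 99452 bases for RUNX2 and RUNX1. ATF4 lies on chromosome 5 at 6042582 to 6044659 and was scaled by 1410 bases. Reads outside these models are not in the counts, which bears on levels between genes more than on a gene's difference between ages.

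RUNX2 took a smaller share of the RUNX family in each day 85 library than in any day 45 library, although no single RUNX gene was called. RUNX2 made up 83.2%, 83.6% and 86.4% of the summed RUNX1, RUNX2 and RUNX3 FPKM in day 85 replicates 1, 2 and 3, against 91.3%, 92.8% and 90.3% in day 45 replicates 1, 2 and 3. The mean was 84.4% ± 1.698 at day 85 and 91.5% ± 1.25 at day 45 (SD, n = 3 each), a difference of -7.07 percentage points. In CPM, which ignores length, the difference was -3.31 points. Such a lack of overlap is common, since 35% of all tested genes showed it in their own levels. RUNX1 took 14.5% ± 1.78 at day 85 and 7.19% ± 1.31 at day 45, while the RUNX3 share overlapped at 1.09% ± 0.365 and 1.34% ± 0.397. With so little RUNX3, the RUNX1 share and the ratio of RUNX2 to RUNX1 restate the RUNX2 share and are not separate results. The ratio of RUNX2 to RUNX1 FPKM was 5.18, 5.61 and 6.87 at day 85, against 13.2, 15.3 and 10.5 at day 45. On the log2 scale it differed by -1.14, with SDs of 0.210 at day 85 and 0.276 at day 45. The difference in the RUNX2 share lay between -8.04 and -6.40 points when each library was left out in turn, day 85 replicate 2 included. These ratios compare genes within a library, so they do not depend on scaling between libraries. They were not tested, since 3 libraries per age were compared on genes chosen with earlier results known.

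**Figure D3:**
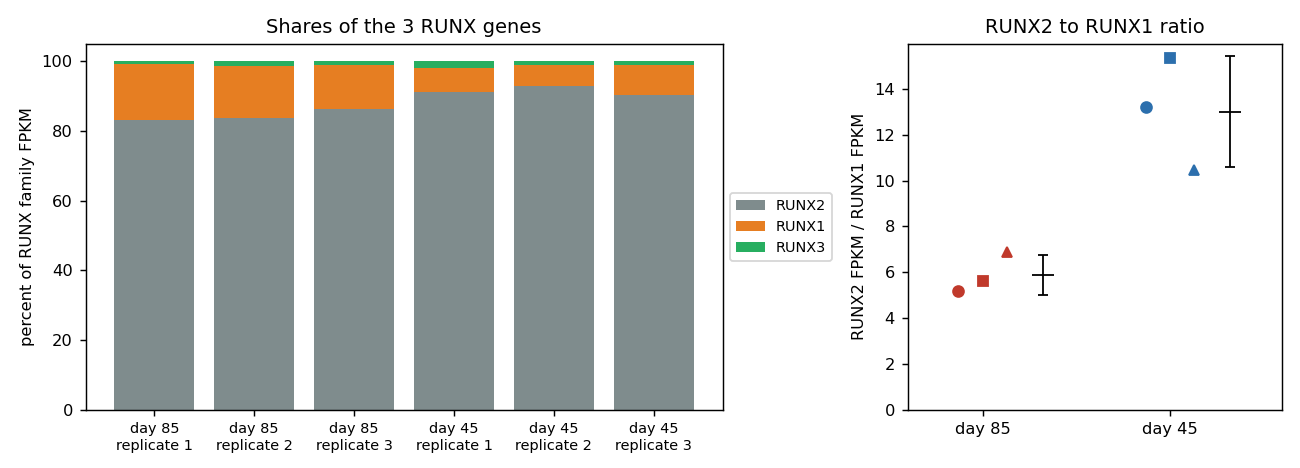
Left, percent of the summed RUNX1, RUNX2 and RUNX3 FPKM taken by each gene in each library; right, RUNX2 FPKM divided by RUNX1 FPKM, with day 85 in red, day 45 in blue and the mean and SD in black. The day 85 ratios lie between 5.18 and 6.87, all below the day 45 ratios of 10.5 to 15.3.

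Likeness between patterns was measured as the root mean square difference of log2(CPM + 0.5) over the 6 libraries, after each gene's own mean was subtracted. SP7 and RUNX2 were 0.19 apart. RUNX3, at 0.464 to 2.27 CPM, is not set beside them, since the added 0.5 narrows its spread on this scale. RUNX1 was 0.59 from RUNX2 and 0.55 from SP7, and ATF4 was 0.49 and 0.45 from them. Over 9680 named genes with a mean of at least 5 CPM, the median distance was 0.52 to RUNX2 and 0.51 to SP7. Set against these genes, SP7 ranked 88 in nearness to RUNX2, and RUNX2 ranked 52 in nearness to SP7. The genes nearest to RUNX2 were NEDD9, a scaffold protein of focal adhesions, at 0.07, and SAMD11 and OAF, both at 0.09. NEDD9 stood at 24.97, 50.3 and 43.0 CPM at day 85, against 52.1, 71.9 and 44.2 CPM at day 45. Nearest to SP7 were RPUSD1 at 0.07, VASN, a TGF-beta-binding membrane protein, at 0.09 and C1QTNF5 at 0.10. Nearest to RUNX1 were AGPAT3 and MYO1E, an unconventional myosin, at 0.08, and PKN3 at 0.09. Nearest to RUNX3, on that narrowed scale, were VIMP at 0.09, and ARHGEF19 and RCN3 at 0.12. Nearest to ATF4 were CENPB at 0.04 and LONP2 and MSRA at 0.05. With 6 shared libraries such nearness is common, since 336 genes lay within 0.25 of RUNX2 and 3870 within 0.25 of ATF4.

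Of 15 tested RUNX co-regulators, KAT2B rose and 0 fell, where 3.90% of all tested genes were called higher and 2.66% lower. The median log2 fold change was -0.03, against 0.02 over all tested genes. KAT2B, the acetyltransferase PCAF, stood at 35.02, 19.5 and 33.7 CPM at day 85 and at 8.94, 9.45 and 11.0 CPM at day 45. It was higher in all day 85 libraries, 3.00-fold on average (1.58 on the log2 scale, SE 0.25, edgeR adjusted p = 0.0259). The most abundant members overlapped between the ages: the acetyltransferase CREBBP averaged 204 ± 21.9 and 173 ± 18.4 CPM at day 85 and day 45, and the arginine methyltransferase PRMT1 averaged 229.8 ± 33.1 and 259 ± 21.1 CPM. When day 85 replicate 2 was left out, 2 members rose and 1 fell, where 12.3% of all genes were called higher and 10% lower. Leaving out any other library called 0 of them, in fits that called at most 93 genes higher and 25 lower.

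Of 15 tested proteins that restrain RUNX2, ZNF521 fell and 0 rose, where 2.66% of all tested genes were called lower and 3.90% higher. The median log2 fold change was -0.17, against 0.02 over all tested genes. An unadjusted p under 0.05 in edgeR put 5 higher and 5 lower, against 15.8% and 13.3% of all genes. At day 85, 5 lay above and 5 below without overlap, against 17.4% and 17.6% of all genes. ZNF521, a zinc finger protein that binds RUNX2 in mouse osteoblast precursors, stood at 48.8, 59.6 and 77.9 CPM at day 85 and at 105, 136 and 118 CPM at day 45. The ages did not overlap, and the level at day 85 was lower by a factor of 1.93 (-0.95 on the log2 scale, SE 0.20, edgeR adjusted p = 0.0431). The histone deacetylases HDAC5 and HDAC6, the most abundant members, averaged 189 ± 3.07 and 119.8 ± 2.64 CPM at day 85, against 213 ± 48.9 and 149 ± 19.3 CPM at day 45, with adjusted p = 0.571 and 0.1595 in edgeR. HAND2, singled out after its values were seen, encodes a patterning factor of the lower jaw that inhibits RUNX2 in mouse. It stood at 1.08, 1.27 and 1.85 CPM at day 85 and at 21.9, 33.1 and 2.62 CPM at day 45, and did not pass (-3.76 on the log2 scale, SE 0.92, edgeR adjusted p = 0.0636). Day 45 replicate 3 lay far below the other libraries of its age, nearest to the day 85 level. Leaving it out widens the difference by construction, so the edgeR adjusted p of 0.0411 without it is not read as a result. No other edgeR fit called HAND2, at adjusted p of 0.0601 to 0.180. DESeq2 called it (adjusted p = 0.000832) and limma-voom did not (adjusted p = 0.2355). The ZNF521 call was kept without day 85 replicate 2 (adjusted p = 0.0294), where 2 of the 15 rose and 2 fell, against 12.3% and 10% of all genes. It was lost when any other library was left out (edgeR adjusted p of 0.0549 to 0.145), in fits that called at most 93 genes higher and 25 lower. DESeq2 called 5 higher and 5 lower, in a fit that called 22.7% of all genes.

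Of 23 other osteoblast transcription factors, 0 were called in edgeR, where an unadjusted p under 0.05 put 2 higher and 4 lower, and DESeq2 called 1 higher and 4 lower. Among all tested genes an unadjusted p under 0.05 put 15.8% higher and 13.3% lower, and DESeq2 called 12.2% higher and 10.5% lower. The median of the list was -0.17. CREB3L1, the transmembrane factor OASIS that activates type I collagen genes in mouse osteoblasts, stood at 194, 407 and 240.0 CPM at day 85 and at 359.8, 371 and 212 CPM at day 45. MEF2C averaged 161 ± 60.6 and 148 ± 8.79 CPM at day 85 and day 45. GLI3, a mediator of hedgehog signalling, averaged 120.1 ± 15.5 and 166 ± 24.5 CPM without overlap (edgeR adjusted p = 0.114). NFATC1, chosen after its values were seen and also the key factor of osteoclasts, stood at 26.7, 126 and 28.1 CPM at day 85, against 20.9, 31.1 and 20.2 CPM at day 45. Its peak was in the library with the most osteoclast markers, whose part in it was not tested. Without day 85 replicate 2, 2 members rose and 8 fell, against 12.3% and 10% of all genes. CEBPB had no count in any library and was not tested.

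The genes that RUNX2 and SP7 are described to activate in bone did not follow a single pattern. Of 16 tested, 0 were called in edgeR, where an unadjusted p under 0.05 put 3 higher and 3 lower, against 15.8% and 13.3% of all genes. DESeq2 called 3 higher and 3 lower, against 12.2% and 10.5% of all genes. Their log2 fold changes ran from -2.81 to 3.04 with a median of 0.41. SPP1, the matrix phosphoprotein osteopontin, stood at 4079, 10779 and 3462 CPM at day 85 and at 1064, 2640 and 680 CPM at day 45, without overlap (2.06 on the log2 scale, SE 0.67, edgeR adjusted p = 0.111). COL1A2, a chain of type I collagen, averaged 50453 ± 12570 and 36513 ± 6805 CPM at day 85 and day 45, and SPARC, the collagen-binding protein osteonectin, averaged 4581 ± 1228 and 3083 ± 590 CPM. Neither passed (edgeR adjusted p = 0.276 and 0.188).

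The library order of these genes was set against that of RUNX2 and SP7 for SPP1 and 5 further targets, chosen after their values were seen. IBSP, bone sialoprotein, stood at 1480, 5519 and 1542 CPM at day 85 and at 3077, 3399 and 1655 CPM at day 45. DMP1, an osteocyte matrix protein, stood at 693, 1909 and 510 CPM and at 366, 717 and 123 CPM. Both were highest in replicate 2 at each age, as were RUNX2, SP7, SPP1, PTH1R and the sum of the osteoclast markers. BGLAP, which encodes osteocalcin, had its lowest day 85 value in that library, with 444, 173 and 335 CPM at day 85 against 23.5, 78.0 and 13.8 CPM at day 45. PANX3, a channel protein of prehypertrophic chondrocytes and osteoblasts, stood at 5.80, 36.7 and 19.9 CPM against 186, 125 and 128 CPM (edgeR adjusted p = 0.0551, and 0.00992 without day 85 replicate 2). PTH1R, the parathyroid hormone receptor, stood at 193, 466 and 262 CPM against 752, 824 and 478 CPM (edgeR adjusted p = 0.103, and 0.0107 without day 85 replicate 2). BGLAP and SPP1 were thus higher in all 3 day 85 libraries than in any day 45 library, PANX3 and PTH1R lower, and IBSP and DMP1 overlapped. Over all 16 targets, 3 lay above and 2 below without overlap, where 17.4% and 17.6% of all tested genes did. BGLAP did not pass with all libraries (edgeR adjusted p = 0.0627). Without day 85 replicate 2, BGLAP was called higher (edgeR adjusted p = 0.0300) and PANX3 and PTH1R lower, where 12.3% and 10% of all genes were. For BGLAP, PANX3 and PTH1R that library was the day 85 library nearest to the day 45 levels. Leaving it out widens their differences by construction, so these calls are not read as results. When any other library was left out 0 of the 16 were called, in fits that called at most 93 genes higher and 25 lower.

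**Figure D4:**
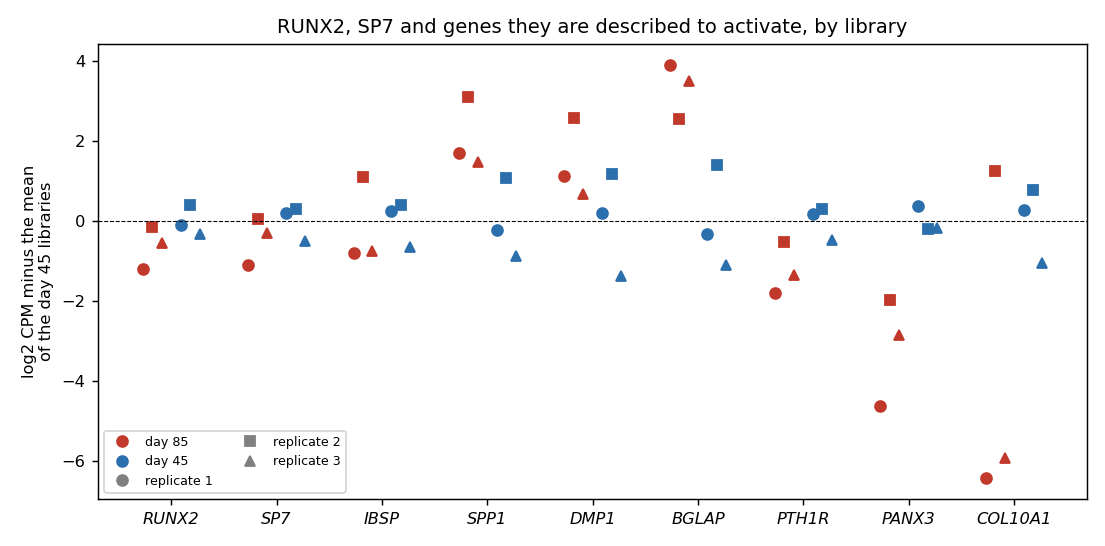
Log2 CPM of RUNX2, SP7 and 7 genes they are described to activate, in each library, after the mean of the 3 day 45 libraries was subtracted; day 85 is red, day 45 blue, and replicates 1, 2 and 3 are circle, square and triangle. The day 85 libraries span 4079, 10779 and 3462 CPM in SPP1 and 2.24, 466 and 3.17 CPM in COL10A1, against 127, 265 and 199.9 CPM in RUNX2.

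Among 7 cartilage genes described as activated by RUNX2 or RUNX3, 1 was called higher and 0 lower, against 3.90% and 2.66% of all tested genes. An unadjusted p under 0.05 put 3 higher and 1 lower, against 15.8% and 13.3% of all genes. DESeq2 called 3 higher and 0 lower, against 12.2% and 10.5% of all genes. VEGFA, the angiogenic factor released by hypertrophic cartilage, rose to 91.8, 71.9 and 110 CPM at day 85, against 52.1, 57.3 and 49.7 CPM at day 45 (0.78 on the log2 scale, SE 0.17, edgeR adjusted p = 0.0465). COL10A1, the collagen of hypertrophic cartilage, was at 2.24, 466 and 3.17 CPM at day 85 and at 234, 334.5 and 93.7 CPM at day 45. The spread among the day 85 libraries was therefore far wider in COL10A1 than in RUNX2, whose values there were 127, 265 and 199.9 CPM. With all libraries neither COL10A1 nor IHH, the hedgehog ligand of prehypertrophic cells, was called (edgeR adjusted p = 0.880 and 0.157). IHH stood at 0.0773, 24.6 and 0.857 CPM at day 85 and at 144, 155 and 68.4 CPM at day 45. Without day 85 replicate 2 their log2 fold changes were -6.33 and -7.92 (edgeR adjusted p = 0.00399 and 0.00278). In both genes that library was the highest of day 85, so leaving it out widens the difference by construction. These values are not read as results, and that of IHH rests on 0.0773 and 0.857 CPM at day 85. The VEGFA call was kept without day 85 replicate 2 (edgeR adjusted p = 0.00515). It ended when any other library was left out (edgeR adjusted p of 0.111 to 0.184), in fits that called at most 93 genes higher and 25 lower. It also ended under upper-quartile scaling, library totals, no filter, limma-voom and both FPKM scales, at adjusted p of 0.0513 to 0.0621.

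Of 27 tested targets of ATF4, CHAC1 fell and 0 rose, where 2.66% of all tested genes were called lower. By an unadjusted p under 0.05, 7 were lower and 2 higher, against 13.3% and 15.8% of all genes, and 7 of the 27 had a positive log2 fold change. The median was -0.24, against 0.02 over all tested genes. CHAC1, a glutathione-degrading enzyme, stood at 2.78, 4.33 and 3.50 CPM at day 85 and at 7.29, 14.9 and 11.1 CPM at day 45 (-1.64 on the log2 scale, SE 0.32, edgeR adjusted p = 0.0374). Every day 85 library lay below every day 45 library. ALDH18A1, which makes the proline precursor used in collagen, stood at 92.3, 189 and 134 CPM at day 85 and at 278, 247 and 209 CPM at day 45, without overlap, and did not pass (edgeR adjusted p = 0.104). SLC1A5, a glutamine transporter, averaged 128 ± 57.5 and 196 ± 12.7 CPM at day 85 and day 45 (edgeR adjusted p = 0.222). When day 85 replicate 2 was left out, 12 targets fell and 1 rose, a median of -0.33, where 10% of all genes were called lower. With all libraries, DESeq2 called 7 lower and 2 higher, against 10.5% and 12.2% of all genes. In edgeR 0 were called when any library other than day 85 replicate 2 was left out, in fits that called at most 93 genes higher and 25 lower.

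Of 8 tested genes that control ATF4, 2 rose and 0 fell, where 3.90% of all genes were called higher. RPS6KA3 encodes RSK2, the kinase that phosphorylates ATF4 in mouse osteoblasts. It stood at 42.4, 33.8 and 39.7 CPM at day 85 and at 17.9, 16.3 and 25.7 CPM at day 45, 1.94-fold higher (0.95 on the log2 scale, SE 0.20, edgeR adjusted p = 0.0438). EIF2AK1, the heme-regulated kinase of eIF2alpha, rose 1.46-fold and was even between libraries, at 25.1, 25.2 and 24.4 CPM at day 85, against 17.4, 16.7 and 17.1 CPM at day 45 (edgeR adjusted p = 0.0432). Erythroid and megakaryocyte markers, 8 genes with PF4 at 0, summed to 102, 193 and 53.5 CPM at day 85 and to 34.9, 36.1 and 26.2 CPM at day 45. Of the 6 tested, 2 were called higher, and their part in the level of EIF2AK1 was not tested. The EIF2AK1 and RPS6KA3 calls were kept without day 85 replicate 2. They were lost without each of the other libraries, in fits that called at most 93 genes higher and 25 lower. With library totals as the only scaling neither gene was called (edgeR adjusted p = 0.0601 for EIF2AK1 and 0.0663 for RPS6KA3). Upper-quartile scaling and both FPKM scales also ended the call of RPS6KA3 (0.0514 to 0.0668), and dropping the filter that of EIF2AK1 (0.0595). KAT2B, VEGFA and RPS6KA3 were each lowest among the day 85 libraries in replicate 2. So were the endothelial and the skeletal muscle sums, whose part in the levels of these genes was not tested.

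**Figure D5:**
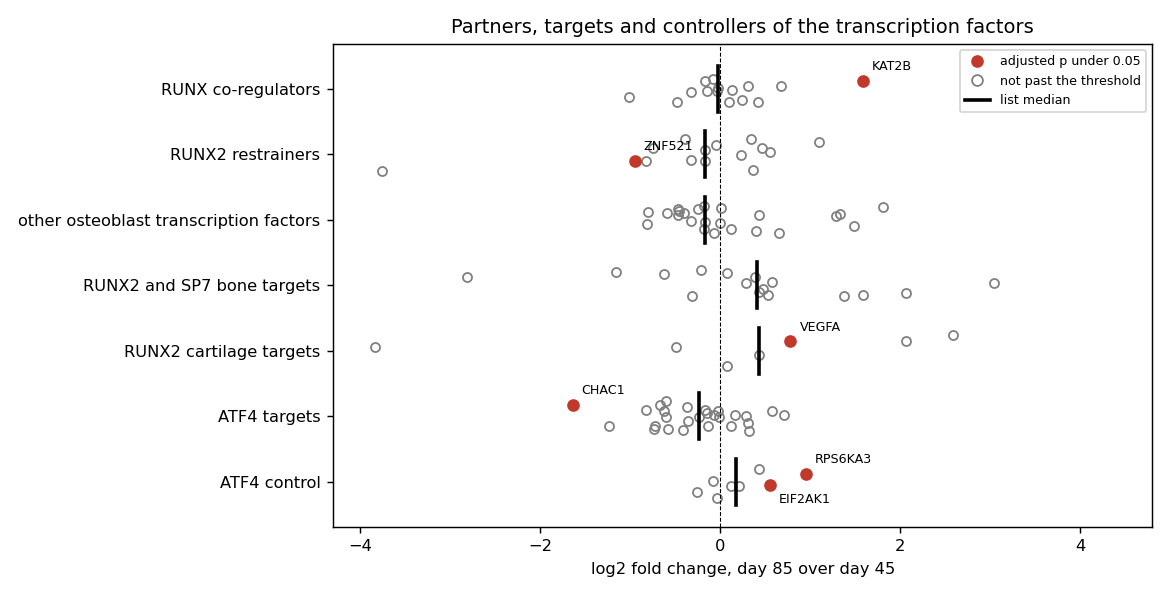
Log2 fold change, day 85 over day 45, of every tested gene in 7 lists of partners, targets and controllers; filled red points passed an edgeR adjusted p of 0.05, open points did not, and black bars are list medians. The 6 called genes are KAT2B, ZNF521, VEGFA, CHAC1, EIF2AK1 and RPS6KA3, and the medians run from -0.24 for ATF4 targets to 0.43 for cartilage targets.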

How the data were processed

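Total RNA of 6 condyle libraries was sequenced once ribosomal RNA had been taken out with beads, and strand was kept by degrading second-strand cDNA, per the labels' protocols. The submitters' processing notes list HISAT2 and give no version. No source used here names the program that counted the reads, whether it used strand, or the build and annotation, so reads of overlapping or antisense genes could not be separated from those of the genes reported. The authors deposited whole-number read counts per gene. The authors also deposited FPKM values, which over 10748 genes with at least 50 counts in every library equalled the count divided by the library total and a constant per gene, within 0.0015%.

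The test was that of edgeR 4.0.16, run under R 4.3.3 (filterByExpr with a minimum count of 10, TMM, robust quasi-likelihood F test, age as the only factor). The SE is the log2 fold change divided by the square root of F, and the 95% interval uses the fitted degrees of freedom. On 5 simulated data sets with 200 changed genes among 15022, the test recovered 19.0% of 2-fold and 81.3% of 4-fold changes, and 7.63% of its calls were false. No pair of libraries agreed within sampling noise. Of 128 list entries, 115 had a row, some under an older symbol. Named genes are the members, up to 4 called members of each list filled to 3 with the most abundant, and the 3 genes nearest to each member. One gene that this rule names is not reported here. The members and lists were chosen with earlier results of these data known. Alternatives were other scalings and filters, DESeq2 1.42.0, limma 3.58.1 on voom values or log2(FPKM + 0.1 or 1), a replicate block, and leaving out each library. Day 85 and day 45 libraries with the same number did not deviate together (correlations 0.00, 0.23 and 0.00), so the numbers were not used to pair them.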

Additional observations from a re-analysis of the deposited data

How the results depend on the processing

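None of the 5 members reached an adjusted p under 0.05 in any of the 16 alternatives, and 79 of 80 refitted log2 fold changes kept their sign. The exception was ATF4, at -0.08 without day 45 replicate 3. Leaving out 1 library at a time gave -0.87 to -0.38 for RUNX2, -0.69 to -0.18 for SP7, 0.23 to 0.71 for RUNX1, -1.23 to -0.31 for RUNX3 and -0.08 to 0.13 for ATF4. In the same omissions, the genes called higher at day 85 numbered 0 to 1884 and lower 0 to 1528. The highest counts came without day 85 replicate 2. DESeq2 called 2052 higher and 1764 lower. Library totals alone gave 437 higher and 598 lower, and limma-trend on log2(FPKM + 1) 614 lower.

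Calls in the lists were as unsteady. Over omitted libraries they ran from 0 to 3 for co-regulators, 0 to 4 for restrainers, 0 to 10 for other osteoblast factors, 0 to 3 for bone targets, 0 to 3 for cartilage targets, 0 to 13 for ATF4 targets and 0 to 2 for ATF4 control. Each of these maxima came without day 85 replicate 2, in a fit that called 22.3% of all genes. The other omissions called at most 93 genes higher and 25 lower. DESeq2 called 4, 10, 5, 6, 3 and 9 in the first 6 of these lists, of 15, 15, 23, 16, 7 and 27 tested genes. Over all genes it called 22.7%. Co-regulators had 2 calls with library totals and on both FPKM scales, and restrainers 2 with limma-voom. Bone targets had 1 with library totals and with log2(FPKM + 0.1), and 2 with limma-voom and log2(FPKM + 1). Cartilage targets had 0 with upper-quartile scaling, library totals, no filter, limma-voom and both FPKM scales. ATF4 control had 0 with library totals, and 1 with upper-quartile scaling, no filter and both FPKM scales. The cause of these shifts was not tested.

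The replicate block, with numbers that do not pair the libraries, called 465 genes higher and 217 lower, 3 bone targets, 2 cartilage targets, 2 ATF4 targets and 1 gene of ATF4 control. Under this block VEGFA and EIF2AK1 were not called (adjusted p = 0.0773 and 0.0746). With CPM in place of FPKM, which ignores length, the RUNX2 share differed by -3.31 points. The ratio of CBFB to the RUNX genes was not run, since no row carries that name. RUNX3 rests on 6 to 37 counts per library.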
